A study of Danio rerio with 31 samples.

Results

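The line effect described here is the difference between the brains of 6 F2 TREATED zebrafish (4 females and 2 males) and 6 F2 CONTROL zebrafish (4 females and 2 males), taken over both sexes with sex as an additive term. The F2 TREATED fish were unexposed descendants of F0 fish exposed to PCBs (polychlorinated biphenyls) mixed with PBDEs (polybrominated diphenyl ethers), and the F2 CONTROL fish descended from F0 fish without that exposure. All were adults of the TU wild-type line, and RNA came from the whole brain of 1 fish per library. These 12 fish were sequenced in 15 runs, of 24 fish and 31 runs in the whole series. The remaining 12 fish were F0 males, 6 TREATED (exposed) and 6 CONTROL. Dose, route and length of the F0 exposure, the parents of each F2 fish, and their clutches and tanks are missing from the labels, and line, family and tank cannot be told apart. The p-values below measure only the spread between these fish. Of 32520 gene IDs, 19463 had enough reads to be tested, and 11397 of those had a change of the same sign in females and in males. Those 11397 genes are the ones the rule selects, and their shared sign is by itself no finding.

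PCBs were used as insulating fluids and PBDEs as flame retardants, and both build up in body fat. Some PCBs activate the aryl hydrocarbon receptor, which pairs with ARNT to switch on detoxifying genes, and several PCBs and PBDEs disturb thyroid hormone and calcium signalling in nerve cells. The comparison asks which genes of the adult brain stood apart between the descendant lines in the same direction in females and in males. Expression is given in CPM, gene reads scaled to a common library size with TMM factors. Changes are log2 ratios of F2 TREATED over F2 CONTROL, each with its SE, the standard error. Symbols were taken from the name table, where many have the human form without the zebrafish paralog letter. Levels of different genes are not compared, since gene lengths were not used.

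Each F2 fish gave 12.2 to 30.1 M gene reads, with a mean of 17.0 M in F2 TREATED fish and 23.0 M in F2 CONTROL fish (exact two-sided permutation within sex, p = 0.0333, adjusted p = 0.2 over 21 library measures). Brain markers were present in every fish: mbpa, the myelin basic protein gene, had 7542 to 13500 CPM, and GFAP, the glial filament gene, 36.6 to 104 CPM. At equal depth, F2 TREATED females 6 and 24 and F2 CONTROL female 21 had the fewest genes detected. They had 15665, 16015 and 16421 genes, against 18191 to 20996 in the other F2 fish. The share of uniquely aligned reads that fell outside annotated genes was 19.6 ± 1.19% in F2 TREATED fish and 21.8 ± 1.59% in F2 CONTROL fish (SD, n = 6 each, exact two-sided permutation p = 0.0381, adjusted p = 0.2). In females the lines did not overlap, 18.7 to 20.8% in F2 TREATED and 21.6 to 23.5% in F2 CONTROL, while in males they did, 17.7 to 20.2% in F2 TREATED and 19.1 to 21.0% in F2 CONTROL.

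No single gene separated the lines of both sexes past the threshold of the main test. edgeR's quasi-likelihood test called 0 of 19463 genes at an adjusted p below 0.05 (0%), the lowest adjusted p being 0.253. At an unadjusted p below 0.05 it listed 1496 genes, 7.69% of those tested, 644 higher and 852 lower in F2 TREATED brains. Adding the outside-genes share as a covariate left 489. The choice of tool changed this count. DESeq2's Wald test called 61 of the 7388 genes that its own filter on low counts kept, 29 higher and 32 lower, and 26 genes when that filter was switched off. Each of the 61 had the same sign in both sexes. A fit over both sexes favours such genes, so this is no separate evidence of a shared effect: 1448 of edgeR's 1496 genes had the same sign too. limma-voom with sample weights called 6 genes, and 3 of them, GLRX, NECAB2 and zgc:194629, were also called by DESeq2. The genes named in the next paragraphs are therefore described by their values: they were the 6 with the lowest p in each direction among genes with the same sign in both sexes, at least 1 CPM in the higher line and no clone name, and they did not pass edgeR's threshold.

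The change in females and the change in males come from different fish, so the agreement of their signs is not built into the fits. Fitted alone, females and males had the same sign at 11412 of 19463 genes, 58.6%, 5609 higher and 5803 lower in both sexes. Among the 1086 genes at an unadjusted p below 0.05 in females alone, 815 had the same sign in males alone, 75.0%, with 362 higher and 453 lower. The shorter list at an unadjusted p below 0.001 in females held 22 genes, of which 19 had the same sign in males. Taken from the other side, 1122 of the 1556 genes that males alone listed at an unadjusted p below 0.05 had the same sign in females, 72.1%. Genes with a mean of at least 10 CPM shared their sign at 61.7%, and genes below 10 CPM at 55.9%. Across all tested genes the changes of females and males had a Pearson correlation of 0.10 and a Spearman correlation of 0.19; genes are not independent replicates, since all values of a sex come from the same few fish. Single males moved these shares. Without F2 TREATED male 38 the share of the female list was 58.5% and that of all genes 53.8%, and without F2 CONTROL male 27 they were 61.3% and 54.7%. Without the 3 fish with the fewest genes detected they were 65.2% and 53.9%.

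**Figure D1:**
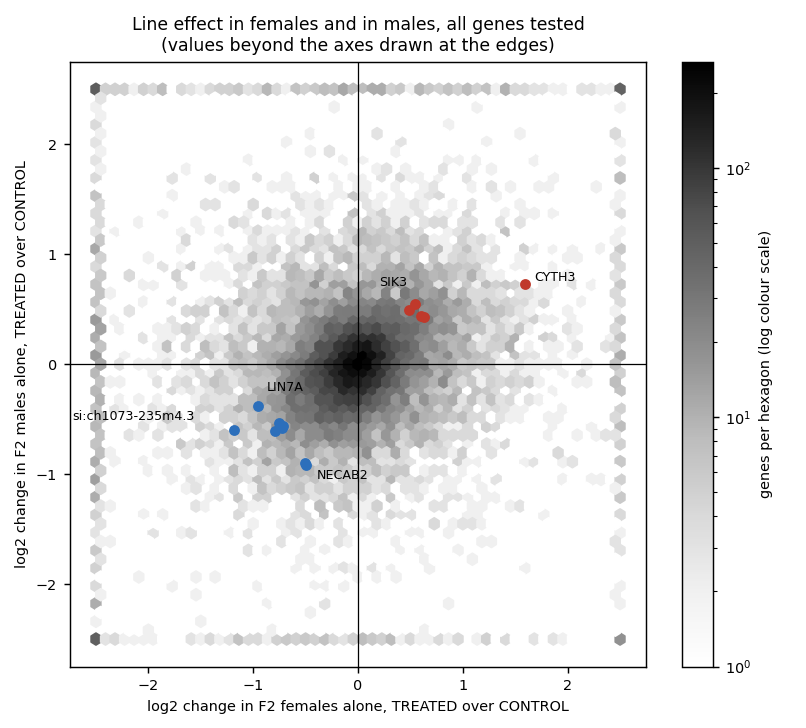
Log2 change of every tested gene in F2 females alone (horizontal axis) and in F2 males alone (vertical axis), TREATED over CONTROL, as hexagons shaded by the number of genes; red points are 5 named genes higher and blue points 8 named genes lower in F2 TREATED brains. The 2 quadrants of shared sign hold 58.6% of the genes, and the named genes lie in them between 0.38 and 1.60 log2 units from 0 on both axes.

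Of the genes so limited with lower values in F2 TREATED brains of both sexes, DGCR8, mgll, oip5-as1, NECAB2, CALR and LIN7A had the lowest p. DGCR8, the partner of Drosha that recognises primary microRNAs, had 38.7, 36.0, 33.4 and 40.5 CPM in F2 TREATED females and 30.9 and 27.3 CPM in F2 TREATED males, against 77.0, 55.4, 64.3 and 50.3 CPM in F2 CONTROL females and 41.6 and 45.5 CPM in F2 CONTROL males. All 6 F2 TREATED fish lay below all 6 F2 CONTROL fish. The change was -0.68 (SE 0.13, adjusted p = 0.253), -0.73 in females alone and -0.58 in males alone. The mgll gene, for monoglyceride lipase, which breaks down the endocannabinoid 2-arachidonoylglycerol, had 73.2, 96.9, 103 and 79.0 CPM in F2 TREATED females and 70.7 and 65.2 CPM in F2 TREATED males, against 169, 167, 137 and 105 CPM in F2 CONTROL females and 101 and 99.3 CPM in F2 CONTROL males. Within each sex the lines did not overlap, and the change was -0.67 (SE 0.13, adjusted p = 0.253). The long noncoding RNA oip5-as1, also called cyrano, had 59.5, 66.0, 63.5 and 75.0 CPM in F2 TREATED females and 66.2 and 48.1 CPM in F2 TREATED males, against 123, 114, 118 and 91.1 CPM in F2 CONTROL females and 64.1 and 101 CPM in F2 CONTROL males. Females did not overlap, but F2 TREATED male 30 was above F2 CONTROL male 25, and the change was -0.68 (SE 0.13, adjusted p = 0.253). The strand setting of the counting is not given, so reads of genes that overlap oip5-as1 on the other strand cannot be told apart from its own.

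NECAB2, a neuronal calcium-binding protein, had 184, 129, 124 and 140.1 CPM in F2 TREATED females and 114 and 142 CPM in F2 TREATED males, against 217, 209, 161 and 229 CPM in F2 CONTROL females and 252 and 231 CPM in F2 CONTROL males. Its males did not overlap and its females did, through F2 TREATED female 6, and the change was -0.64 (SE 0.13, adjusted p = 0.253). CALR encodes calreticulin, a calcium-binding chaperone of the endoplasmic reticulum, and had 56.9, 62.1, 80.3 and 62.4 CPM in F2 TREATED females and 41.5 and 36.5 CPM in F2 TREATED males, against 98.2, 108, 91.2 and 76.2 CPM in F2 CONTROL females and 62.8 and 82.3 CPM in F2 CONTROL males. Again the males stood apart, and the change was -0.64 (SE 0.13, adjusted p = 0.253), -0.51 in females alone and -0.90 in males alone. With 2 males a line, males that stand apart are common. Of the 19463 genes tested, 7549 (38.8%) did not overlap in males and 733 (3.77%) did not overlap in females. LIN7A, a scaffold protein of synapses and cell junctions, had 35.0, 30.4, 43.0 and 58.7 CPM in F2 TREATED females and 44.1 and 46.2 CPM in F2 TREATED males, against 86.9, 84.8, 80.6 and 72.6 CPM in F2 CONTROL females and 53.4 and 63.9 CPM in F2 CONTROL males. Its lines did not overlap in either sex, and the change was -0.77 (SE 0.16, adjusted p = 0.253), -0.95 in females alone and -0.38 in males alone. NGB, which encodes the oxygen-binding neuroglobin of neurons, had 37.1, 53.7, 40.7 and 31.8 CPM in F2 TREATED females and 37.0 and 32.6 CPM in F2 TREATED males, against 78.4, 93.0, 55.1 and 56.1 CPM in F2 CONTROL females and 51.9 and 54.0 CPM in F2 CONTROL males, a change of -0.73 (SE 0.16, adjusted p = 0.304). The clone-named gene si:ch1073-235m4.3 had a change of -0.99 (SE 0.21, adjusted p = 0.257). These last 2 genes were named because their lines did not overlap in either sex.

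Of the genes with higher values in F2 TREATED brains of both sexes, SIK3, IRF2BP2, CYTH3, MAP4K4, nlrp3l2 and RAB3GAP1 had the lowest p once IDs with a clone name or no name were set aside. The clone-named si:dkey-121b10.8, described among the line-specific genes, had a lower p than all of them. SIK3, a salt-inducible kinase of the AMPK family that in mice sets sleep need, had 140.3, 134, 128 and 144 CPM in F2 TREATED females and 137 and 188 CPM in F2 TREATED males, against 76.7, 104, 92.3 and 103 CPM in F2 CONTROL females and 119.6 and 103 CPM in F2 CONTROL males. All 6 F2 TREATED fish were above all 6 F2 CONTROL fish, and the change was 0.54 (SE 0.11, adjusted p = 0.253), 0.54 in females alone and 0.54 in males alone. RAB3GAP1, a subunit of the complex that acts on the synaptic vesicle GTPase Rab3, had 56.3, 64.3, 70.4 and 73.2 CPM in F2 TREATED females and 64.4 and 87.8 CPM in F2 TREATED males, against 45.7, 52.9, 49.8 and 40.2 CPM in F2 CONTROL females and 52.8 and 55.3 CPM in F2 CONTROL males. It too separated all 6 fish of one line from all 6 of the other, with a change of 0.49 (SE 0.12, adjusted p = 0.323). IRF2BP2, a transcriptional corepressor, had 70.17, 69.7, 78.9 and 87.2 CPM in F2 TREATED females and 101 and 91.0 CPM in F2 TREATED males, against 39.4, 47.0, 55.9 and 59.9 CPM in F2 CONTROL females and 75.1 and 66.4 CPM in F2 CONTROL males, a change of 0.55 (SE 0.12, adjusted p = 0.311). MAP4K4, a kinase upstream of JNK signalling, had 204, 169.7, 145 and 216 CPM in F2 TREATED females and 189.8 and 244 CPM in F2 TREATED males, against 93.3, 112, 123 and 148 CPM in F2 CONTROL females and 169 and 153 CPM in F2 CONTROL males. Its females overlapped between F2 TREATED female 24 and F2 CONTROL female 39, and the change was 0.56 (SE 0.13, adjusted p = 0.323). CYTH3, a cytohesin that loads ARF GTPases, had 27.9, 16.4, 9.27 and 12.2 CPM in F2 TREATED females and 23.1 and 15.2 CPM in F2 TREATED males, against 4.11, 6.74, 4.42 and 6.53 CPM in F2 CONTROL females and 13.5 and 9.63 CPM in F2 CONTROL males, a change of 1.30 (SE 0.29, adjusted p = 0.311). IRF2BP2 is 1 of 2 IDs and CYTH3 1 of 3 IDs with their symbols, so the paralog is not resolved. With nlrp3l2, also line-specific, 14 genes were named in these paragraphs, and DESeq2 called 12 of them. Its filter left CYTH3 and nlrp3l2 without an adjusted p; with the filter off it called CYTH3 (DESeq2 adjusted p = 0.0252) and not nlrp3l2 (0.12).

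**Figure D2:**
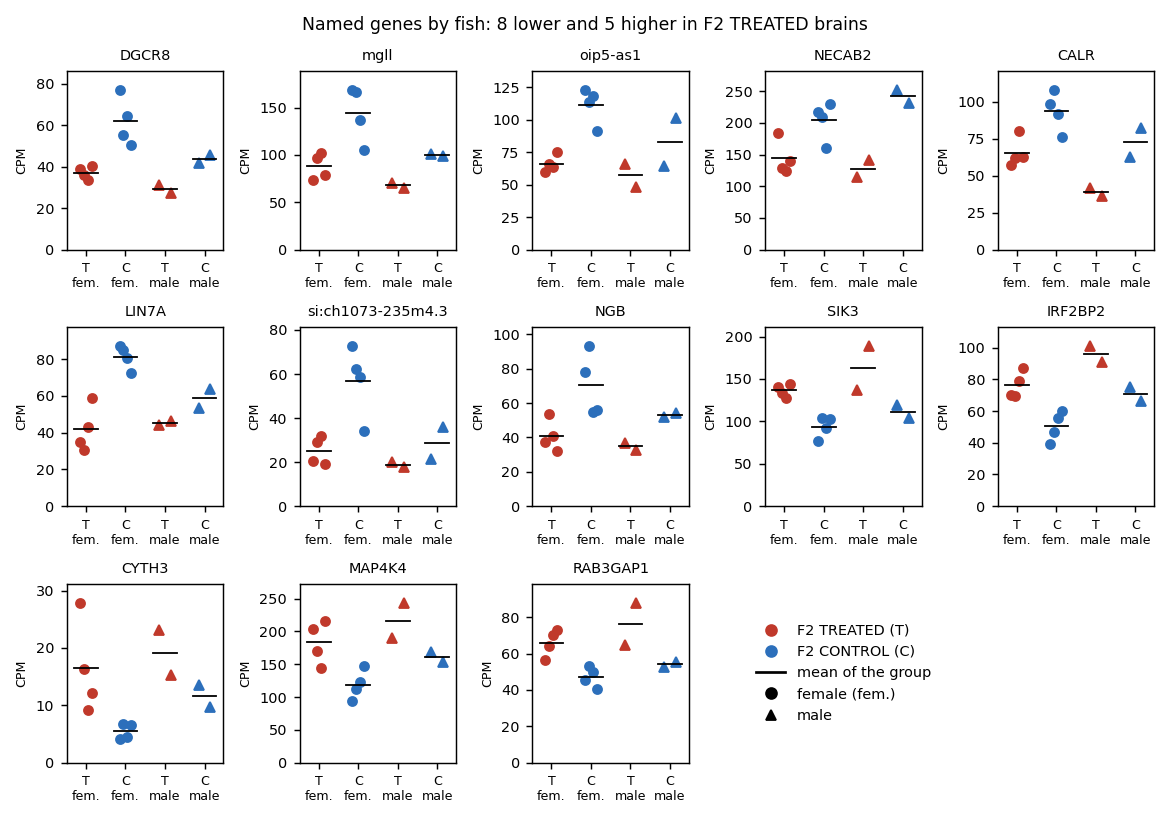
CPM of 13 named genes in each F2 fish (vertical axes start at 0), F2 TREATED in red and F2 CONTROL in blue, circles for females and triangles for males, with a black line at each group's mean. DGCR8, SIK3 and RAB3GAP1 are the panels in which all 6 F2 TREATED fish lie on one side of all 6 F2 CONTROL fish.

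At 231 genes the F2 TREATED fish lay outside the range of the F2 CONTROL fish in females and in males, on the same side. Of these 84 were higher (0.432% of the genes tested) and 147 lower (0.755%), against 53 genes (0.272%) at which the sexes lay on opposite sides. Without the 3 fish with the fewest genes detected the count was 1233, since fewer fish make overlap rarer. A stricter form, all 6 F2 TREATED fish beyond all 6 F2 CONTROL fish, held for 91 genes (0.468% of the genes tested), 31 higher and 60 lower. Another way to ask for agreement, an unadjusted p below 0.05 in each sex fitted alone, gave 164 genes of the same sign (0.843%, 86 higher, 78 lower) and 15 of opposite sign (0.0771%). After the genes named above, those with the lowest p among the 231 included several whose roles are known. RNFT2, a membrane ring-finger protein, had a change of -0.83; STMN4, a stathmin that binds tubulin, -0.46; naca, the nascent polypeptide-associated complex subunit, -0.56; and SRP9, of the signal recognition particle, -0.60. STX12, a syntaxin of endosomes, had -0.70, and TOP2B, DNA topoisomerase II beta, -0.64. On the higher side stood hnrnpa1a, an RNA-binding protein, with 0.38, WASF1, an actin regulator, with 0.47, and FH, fumarate hydratase, with 0.57. These were picked from the 231 after their values were seen, and their adjusted p lay between 0.311 and 0.359.

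The lists of neurotransmitter genes held members on both sides. CHAT, which makes acetylcholine, was the acetylcholine gene with the lowest p: it had 11.5, 12.7, 8.52 and 16.3 CPM in F2 TREATED females and 13.2 and 12.7 CPM in F2 TREATED males, against 31.0, 34.5, 17.4 and 20.2 CPM in F2 CONTROL females and 15.0 and 26.2 CPM in F2 CONTROL males. Its lines did not overlap in either sex and the change was -0.94 (SE 0.23, adjusted p = 0.323), -1.07 in females alone and -0.67 in males alone; DESeq2 called it. It was the only 1 of 20 acetylcholine genes tested at an unadjusted p below 0.05 (5% against 7.69% of all genes). The same sign in both sexes was found in 45.0% of acetylcholine, 63.6% of glutamate and 71.0% of GABA and glycine genes, against 58.6% of all genes. The list of glutamate genes held 6 higher and 4 lower genes of 44 at that level, 22.7% against 7.69% of all genes, with a median change of 0.072 against -0.014 for all genes. GRM7, a presynaptic metabotropic glutamate receptor, had 55.9, 52.2, 51.0 and 59.1 CPM in F2 TREATED females and 64.5 and 70.9 CPM in F2 TREATED males, against 24.7, 19.1, 42.2 and 49.7 CPM in F2 CONTROL females and 57.4 and 46.5 CPM in F2 CONTROL males. The lines did not overlap in either sex, with a change of 0.58 (SE 0.19, adjusted p = 0.436). GRIA3, an AMPA receptor subunit and 1 of 2 IDs with its symbol, had a change of -0.51 (SE 0.14, adjusted p = 0.369), -0.69 in females alone and -0.15 in males alone. Of 31 genes of GABA and glycine signalling 3 were higher and 1 lower at an unadjusted p below 0.05 (12.9%). The single zebrafish monoamine oxidase, mao, which breaks down serotonin and dopamine, had 34.9 ± 6.76 CPM in F2 TREATED brains and 45.8 ± 7.82 CPM in F2 CONTROL brains (SD, n = 6 each), a change of -0.38 with -0.49 in females alone and -0.13 in males alone. Its list of 28 monoamine genes mostly lay the other way, with 20 above 0 and a median of 0.15. At an unadjusted p below 0.05 it held 1 higher and 1 lower gene (7.14%), and 35.7% of its genes had the same sign in both sexes. The neuropeptide list had 27 of 37 genes below 0, against 10076 of 19463 for all genes, with 6 lower and 1 higher at an unadjusted p below 0.05 (18.9% against 7.69% of all genes). This list had the same sign in both sexes at 51.4% of its genes, against 58.6% of all genes. Its median of -0.17 was -0.30 without F2 TREATED female 24, -0.081 without F2 CONTROL male 25, -0.092 without F2 CONTROL female 11 and -0.093 without F2 TREATED female 10. In it NUCB2, the precursor of nesfatin and 1 of 2 IDs with its symbol, had -0.34. NMU, neuromedin U, had -0.91, with -1.33 in females alone and -0.034 in males alone.

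Pathways tied to PCBs and PBDEs held single genes at this level, apart from thyroid signalling. In the aryl hydrocarbon receptor list 1 of 14 genes was at an unadjusted p below 0.05, 7.14% against 7.69% of all genes. This was arnt, the partner of the receptor, with 9.76, 3.76, 6.00 and 5.66 CPM in F2 TREATED females and 4.74 and 3.23 CPM in F2 TREATED males, against 1.35, 1.43, 0.751 and 0.876 CPM in F2 CONTROL females and 1.66 and 3.33 CPM in F2 CONTROL males. Its females did not overlap, the highest F2 CONTROL male was above 1 F2 TREATED male, and the change was 1.91 (SE 0.51, adjusted p = 0.369). Xenobiotic metabolism had 1 of 13 such genes (7.69%), the efflux transporter abcg2a at 0.63, and oxidative stress 1 of 23 (4.35%), the peroxiredoxin prdx1 at 0.29. Thyroid signalling had 4 of 15 (26.7%), 2 in each direction: DIO1, a deiodinase that converts thyroid hormone, had 7.92 ± 2.25 CPM in F2 TREATED brains and 14.0 ± 5.90 CPM in F2 CONTROL brains, and RXRB, a partner of the thyroid hormone receptor, had 18.3 ± 6.99 CPM in F2 TREATED brains and 10.8 ± 4.01 CPM in F2 CONTROL brains (SD, n = 6 each). Their changes were -0.77 (SE 0.29, adjusted p = 0.494) and 0.77 (SE 0.31, adjusted p = 0.56). The 17 genes of estrogen and androgen signalling that were tested had none, and the stress axis 1 of 22 (4.55%), the clock gene PER1, which glucocorticoids induce in mammals, at 0.29. PER1 and prdx1 are each 1 of 2 IDs with their symbol. Females and males shared their sign at 85.7% of the aryl hydrocarbon receptor genes, 7 higher and 5 lower, against 58.6% of all genes. This share was 53.85% for xenobiotic metabolism, 52.2% for oxidative stress and 60.0% for thyroid signalling. For estrogen and androgen signalling it was 64.7%, and for the stress axis 68.2%.

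A pair of genes for DNA methylation had higher values in F2 TREATED brains without passing the test. DNMT1, which copies methylation to new DNA strands, had 66.8, 64.3, 54.4 and 56.8 CPM in F2 TREATED females and 60.2 and 58.2 CPM in F2 TREATED males, against 42.7, 32.0, 43.0 and 52.7 CPM in F2 CONTROL females and 47.2 and 54.6 CPM in F2 CONTROL males. The lines did not overlap in either sex, with a change of 0.41 (SE 0.13, adjusted p = 0.421). MAT2A, which makes the methyl donor S-adenosylmethionine and is 1 of 2 IDs with its symbol, had 166, 140.4, 104 and 207 CPM in F2 TREATED females and 188 and 212 CPM in F2 TREATED males, against 84.2, 121, 89.8 and 121 CPM in F2 CONTROL females and 162 and 159.8 CPM in F2 CONTROL males, and its change was 0.48 (SE 0.15, adjusted p = 0.385). Over the list of 47 methylation and histone-modifying genes, 4 were higher and 2 lower at an unadjusted p below 0.05 (12.8% against 7.69% of all genes), and the median change was 0.062. In the circadian list of 41 genes 3 were higher and 1 lower at that level (9.76%). The same sign in both sexes was found in 39.0% of circadian and 55.3% of methylation and histone-modifying genes, against 58.6% of all genes. The clock repressor ciartb had 21.2, 24.5, 23.9 and 28.8 CPM in F2 TREATED females and 25.4 and 33.4 CPM in F2 TREATED males, against 14.3, 16.0, 15.0 and 18.6 CPM in F2 CONTROL females and 22.6 and 24.8 CPM in F2 CONTROL males, with no overlap in either sex and a change of 0.52. The clock output factor tefa had 92.4 ± 25.7 CPM in F2 TREATED brains and 138 ± 25.8 CPM in F2 CONTROL brains (SD, n = 6 each), a change of -0.57. The time of day of dissection is not given in the sources used here, and its part in these values was not tested. Of 27 immediate early genes, which neurons switch on within minutes of activity, 5 were higher and 0 lower at an unadjusted p below 0.05 (18.5%). The list's median was 0.28 in females alone and -0.036 in males alone, and 40.7% of its genes had the same sign in both sexes, against 58.6% of all genes. The gene fosaa had 3.61, 13.3, 2.73 and 12.3 CPM in F2 TREATED females and 2.86 and 4.74 CPM in F2 TREATED males, against 0.899, 1.37, 1.19 and 0.693 CPM in F2 CONTROL females and 3.19 and 3.51 CPM in F2 CONTROL males; its females stood apart and its males overlapped, at 2.94 in females alone and 0.19 in males alone. FOSB had 0.89 in females alone and 0.92 in males alone.

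Most ribosomal protein genes had changes slightly below 0. Of 62 tested, 60 had a change below 0 and 55 were below 0 in both sexes, against 10076 and 5844 of 19463 for all genes. Only 3 had an unadjusted p below 0.05 (4.84% against 7.69% of all genes), and the median was -0.16. The mean log2 CPM of the list was 8.75 in F2 TREATED female 6, 9.15 to 9.52 in the other F2 TREATED fish and 9.29 to 9.61 in F2 CONTROL fish, so the lines overlapped. Without F2 TREATED female 6 the median was -0.079, and with the outside-genes share as a covariate -0.29. RPS13 and RPS16 had changes of -0.28 and -0.29. The 43 nuclear genes of the respiratory chain had 4 higher and 0 lower genes at an unadjusted p below 0.05 (9.30% against 7.69% of all genes). Of the 43, 15 were below 0. The median was 0.047 over both sexes, 0.081 in females alone and -0.0075 in males alone. ATP5F1B, the catalytic subunit of ATP synthase, had 1664, 1953, 1966 and 1683 CPM in F2 TREATED females and 1798 and 2313 CPM in F2 TREATED males, against 1545, 1532, 1294 and 1463 CPM in F2 CONTROL females and 1903 and 1710 CPM in F2 CONTROL males, a change of 0.27 (SE 0.095, adjusted p = 0.469). The 13 mitochondrially encoded genes had none at an unadjusted p below 0.05. Of these 13, 11 were below 0, with a median of -0.086. The same sign in both sexes was found in 30.8% of them, against 58.6% of all genes.

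Genes of the interferon response mostly had changes below 0, while few of them stood out singly. Of 25 tested, 24 were below 0 and 18 were below 0 in both sexes, against 10076 and 5844 of 19463 for all genes, with a median of -0.69. Of the 25, 3 had an unadjusted p below 0.05 (12% against 7.69% of all genes) and 0 passed the adjusted threshold. The list's mean log2 CPM was -0.35 to 1.64 in F2 TREATED fish and 0.44 to 2.96 in F2 CONTROL fish, so the lines overlapped. F2 CONTROL female 39 had the highest value, and without that fish the median was -0.35, and without the 3 fish with the fewest genes detected -0.57. With the outside-genes share as a covariate it was -1.37. The antiviral GTPase gene mxb had 0, 0, 0 and 0 CPM in F2 TREATED females and 0.164 and 0 CPM in F2 TREATED males, against 0, 0, 3.00 and 5.69 CPM in F2 CONTROL females and 0.332 and 0.787 CPM in F2 CONTROL males. Nearly all of its reads thus came from F2 CONTROL females 31 and 39. The ubiquitin ligase gene trim25 had 18.7, 22.1, 16.7 and 20.9 CPM in F2 TREATED females and 14.0 and 12.8 CPM in F2 TREATED males, against 22.2, 16.8, 31.5 and 32.7 CPM in F2 CONTROL females and 17.4 and 20.7 CPM in F2 CONTROL males, a change of -0.43.

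Whole brains hold many cell types, and in bulk RNA fewer cells of a type and less RNA per cell cannot be told apart. Microglia genes had a median of -0.24 with 18 of 26 below 0, against 10076 of 19463 for all genes. Of the 26, 46.2% had the same sign in both sexes, against 58.6% of all genes. The genes apoeb and apoc1, for apolipoproteins high in zebrafish microglia, had changes of -0.35 (SE 0.11, adjusted p = 0.417) and -0.48 (SE 0.13, adjusted p = 0.37). For apoc1 the values were 384, 383, 257 and 431 CPM in F2 TREATED females and 314 and 301 CPM in F2 TREATED males, against 508, 491, 415 and 427 CPM in F2 CONTROL females and 609.7 and 437 CPM in F2 CONTROL males. Its males did not overlap, which also held for 38.8% of all genes tested. The mean log2 CPM of all microglia markers was 3.00 ± 0.53 in F2 TREATED and 3.38 ± 0.19 in F2 CONTROL fish (SD, n = 6 each, exact two-sided permutation p = 0.081, adjusted p = 0.34). Of all F2 fish, F2 TREATED female 6 had the lowest mean, 2.02, and F2 TREATED female 10 the highest, 3.61. Neuron markers averaged 7.35 ± 0.11 in F2 TREATED and 7.23 ± 0.053 in F2 CONTROL fish (exact two-sided permutation p = 0.0381, adjusted p = 0.2). Of the 29 neuron genes 12 were below 0 and the median change was 0.056. At an unadjusted p below 0.05 there were 2 (6.90% against 7.69% of all genes). These were vamp2 of synaptic vesicles at 0.67, and CAMK2A, the calcium-dependent kinase, at 0.99, or 0.53 without F2 TREATED female 6. Radial glia, the stem cells of the fish brain, had a median of -0.012, with 13 of 27 genes above 0 and 14 below. At an unadjusted p below 0.05 this list held 1 higher and 2 lower genes (11.1% against 7.69% of all genes). Its only gene whose lines did not overlap in either sex was on the higher side. In that list the Notch target her4.1 had 24.4, 43.5, 49.8 and 26.2 CPM in F2 TREATED females and 33.0 and 27.5 CPM in F2 TREATED males, against 77.6, 60.8, 43.1 and 52.9 CPM in F2 CONTROL females and 40.0 and 43.7 CPM in F2 CONTROL males, a change of -0.63. Markers of eye, pineal and pituitary tissue varied widely between fish. Photoreceptor genes had a median of 1.03 and 37 of 41 above 0, a median that was -0.21 with limma-voom, 0.26 without F2 TREATED female 28 and 0.60 with the outside-genes share as a covariate. Their mean log2 CPM ranged from -0.84 to 3.095 in F2 TREATED fish and from -1.25 to 2.55 in F2 CONTROL fish (adjusted p = 0.906 in the exact permutation test). Pituitary genes had a median of -0.59 over 7 genes (-0.21 without F2 TREATED male 38, -0.29 without F2 CONTROL female 21, -0.41 without the 3 fish with the fewest genes detected, -1.85 with the outside-genes covariate), with mean log2 CPM of -1.13 to 0.68 in F2 TREATED and 0.23 to 1.21 in F2 CONTROL fish (exact two-sided permutation p = 0.0238, adjusted p = 0.2). The lowest means, -0.57 and -1.13, were those of F2 TREATED females 6 and 24, which were among these 3 fish. A fit with the photoreceptor level as a covariate called 0 genes, as did the main fit, so its calls cannot show the part of photoreceptor tissue. At an unadjusted p below 0.05 it listed 1392 genes, against 1496 in the main fit. The part of pineal or pituitary tissue in the other results was not tested.

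The other cell type lists held 0 to 3 genes each at an unadjusted p below 0.05. SPAG6, a protein of the central apparatus of motile cilia, was 1 of 16 ependyma and cilia genes at that level, with 2.58, 3.21, 3.64 and 4.04 CPM in F2 TREATED females and 3.19 and 3.03 CPM in F2 TREATED males, against 8.401, 7.43, 5.74 and 5.33 CPM in F2 CONTROL females and 3.98 and 6.72 CPM in F2 CONTROL males. Its lines did not overlap in either sex, which held on the same side for 1.19% of all genes tested. The change was -0.93 (SE 0.34, adjusted p = 0.483). In the muscle list of 28 genes ENO3, the muscle form of enolase, had 25.3 ± 12.5 CPM in F2 TREATED brains and 43.4 ± 13.02 CPM in F2 CONTROL brains (SD, n = 6 each), also without overlap in either sex, and a change of -0.79. The calcium-binding parvalbumin gene pvalb2 of the same list had the opposite sign, at 1.80, or 1.14 without F2 TREATED female 28. Most of the muscle list lay above 0, unlike ENO3, with 20 of 28 genes and a median of 0.30. That median was 0.44 in females alone and 0.53 in males alone. Of 23 genes of endothelium and pericytes, ptprb, a receptor phosphatase of blood vessels, had 0.44, and tek, the angiopoietin receptor, -0.45. UROD of haem synthesis, in the erythrocyte list of 14 genes, had 1.02, with 1.46 in females alone and 0.15 in males alone. FDFT1, squalene synthase, was the 1 gene of 25 of cholesterol synthesis at that level (4% against 7.69% of all genes), with 0.68. Most of that list lay the other way, with 17 of 25 genes below 0 and a median of -0.081. Females and males shared their sign at 52.0% of its genes, against 58.6% of all genes. In the list of 29 meningeal, cartilage and bone genes COL2A1, a collagen, had 0.34 and cnmd, chondromodulin, 1.05. The remaining genes were the radial glia gene NDRG4 at -0.29, the calcium-binding protein gene CALB2 of the olfactory list at 0.28, COX5B of the respiratory chain at 0.44, GUK1, a guanylate kinase of the photoreceptor list, at -0.55 and STMN1, a stathmin of the proliferation list, at -0.24. The adjusted p of these 14 genes lay between 0.373 and 0.634, and COX5B, COL2A1, GUK1 and STMN1 each share their symbol with at least 1 other ID. Another ID named COX5B went the other way, with a change of -1.04 (adjusted p = 0.884). It had -0.35 in females alone and -2.57 in males alone, so no direction can be given for COX5B as a symbol.

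**Figure D3:**
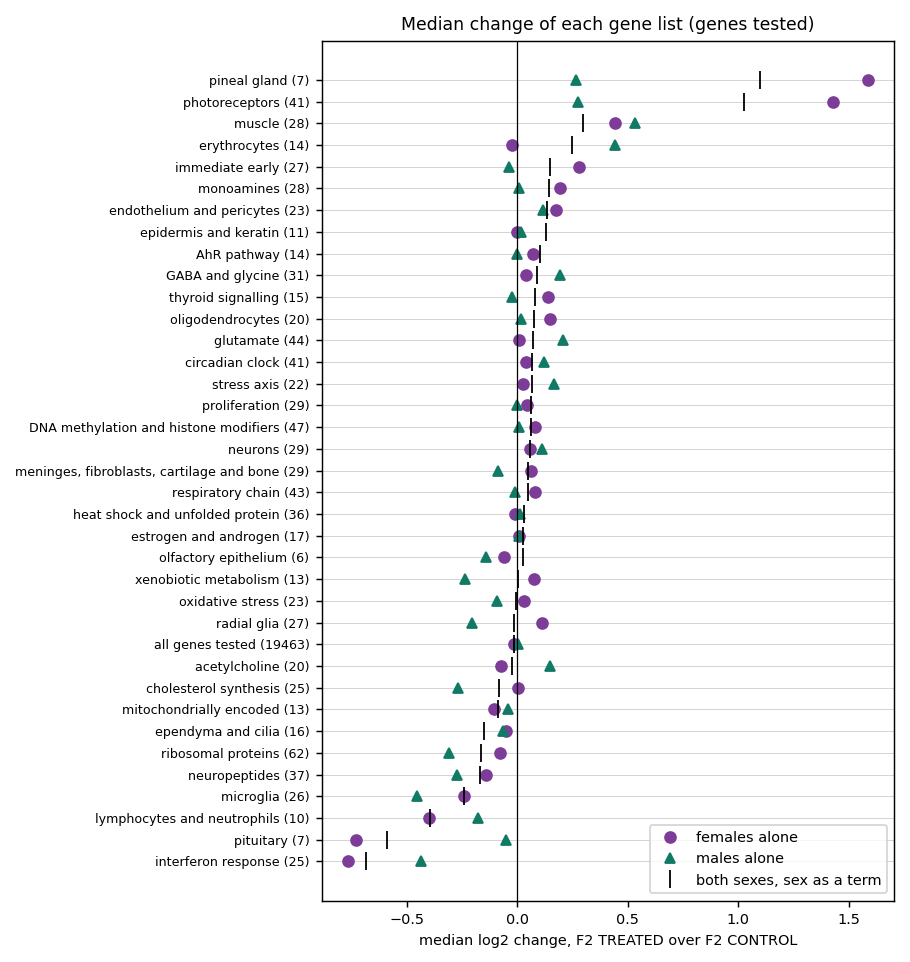
Median log2 change of each gene list, F2 TREATED over F2 CONTROL, with the number of genes tested in brackets; circles are females alone, triangles males alone and black ticks the fit over both sexes. Over both sexes interferon response genes lie lowest, at -0.69, and pineal and photoreceptor genes highest, at 1.101 and 1.03, while all genes tested lie at -0.014.

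A handful of genes were counted in one F2 line and in none of the 6 fish of the other. With 0 reads in 1 line and at least 10 reads in at least 4 fish of the other, a limit set after the counts were seen, there were 6 such genes, and folds are lower bounds against a floor of 3 reads over the silent line. In F2 TREATED fish si:dkey-121b10.8 had 22, 62, 156 and 120 reads in the 4 females and 0 and 68 reads in the 2 males, at least 193-fold higher than in F2 CONTROL fish. The NLR-family gene nlrp3l2 had 171, 57, 87 and 0 reads in F2 TREATED females and 0 and 46 in F2 TREATED males, at least 163-fold higher. ENSDARG00000104832 had 0, 42, 77 and 19 reads in F2 TREATED females and 15 and 24 in F2 TREATED males, at least 79.8-fold higher. In each of these 3 genes, 1 or 2 F2 TREATED fish had no reads either.

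In the other direction ENSDARG00000104629 had 0 reads in every F2 TREATED fish, against 1098, 754, 0 and 0 in F2 CONTROL females and 875 and 608 in F2 CONTROL males, at least 822-fold lower in F2 TREATED. The clone-named si:ch211-207c6.6 had 0 reads in F2 TREATED fish, against 90, 213, 7 and 0 in F2 CONTROL females and 54 and 38 in F2 CONTROL males, at least 99.1-fold lower. MEIOB, which in mammals is a meiotic single-strand DNA-binding protein, had 0 reads in F2 TREATED fish, against 26, 24, 15 and 25 in F2 CONTROL females and 0 and 1 in F2 CONTROL males, at least 22.4-fold lower. All 6 genes had reads in both arms of the F0 males, in 3 to 6 of 6 TREATED and 4 to 6 of 6 CONTROL fish. For these genes no sequence variant was examined, and reads lost or moved between near-identical copies were not tested. In edgeR's test their adjusted p lay between 0.253 and 0.59.

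**Figure D4:**
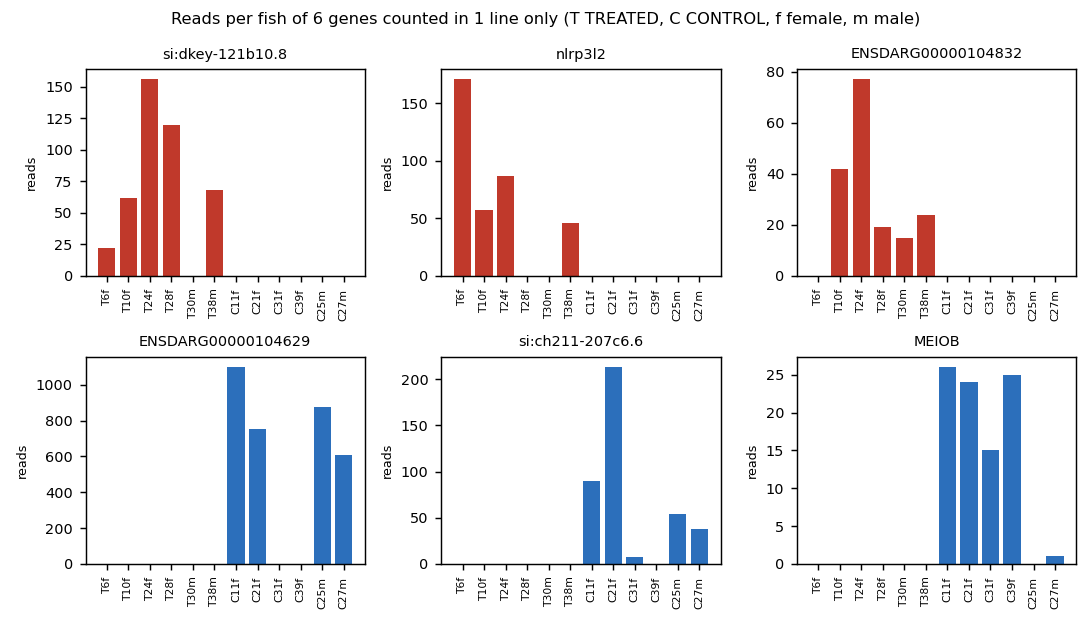
Reads per F2 fish (bars, vertical axes start at 0 and differ between panels) of the 6 genes with reads in 1 line only, F2 TREATED fish in red on the left and F2 CONTROL fish in blue on the right of each panel. In each gene the silent line is at 0 in all 6 fish, and at least 1 fish of the other line is at 0 as well.

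The sexes were also set against each other. No gene had a line effect that differed between females and males at an adjusted p below 0.05 in edgeR's interaction test, 291 did at an unadjusted p below 0.05, and the lowest adjusted p was 1. In the fit of 4 groups the female contrast called 0 genes (1489 at an unadjusted p below 0.05) and the male contrast 0 (272). The lowest p of the interaction was that of 1 of 1947 IDs named 5S_rRNA, whose near-identical copies share reads and whose values are uncertain. The gene with the next lowest p was ENTPD2, an ectonucleotidase that degrades ATP outside cells and 1 of 2 IDs with its symbol: it had 4.45, 1.16, 3.43 and 2.19 CPM in F2 TREATED females and 0.0818 and 0.395 CPM in F2 TREATED males, against 8.16, 10.2, 1.72 and 4.78 CPM in F2 CONTROL females and 15.0 and 12.6 CPM in F2 CONTROL males. Females fitted alone called 0 genes (1086 at an unadjusted p below 0.05), so there was no female call to look up in males; without the 3 fish with the fewest genes detected they called 5. Males fitted alone, 2 against 2, called 26 genes, 0.134% of those tested, 7 higher and 19 lower. The male contrast of the 4-group fit, which takes its spread from all 12 fish, called 0. These 26 calls therefore depend on a spread taken from 2 males a line. Beside a same-sign share of 58.6% over all genes, 23 of the 26 (88.5%) had the same sign in females. Among them were NECAB2 and HSPA8, a constitutive heat shock chaperone that had 77.0, 79.4, 60.9 and 68.8 CPM in F2 TREATED females and 77.0 and 74.8 CPM in F2 TREATED males, against 78.2, 88.7, 81.1 and 65.1 CPM in F2 CONTROL females and 139 and 196 CPM in F2 CONTROL males. The female change of HSPA8 was small, -0.13 in females alone and -1.14 in males alone. HSPA8 is 1 of 2 IDs with its symbol. GLRX, a glutaredoxin, had a change of 1.91 over both sexes (adjusted p = 0.359), 1.39 in females alone and 3.05 in males in the fit of 4 groups. It was called in males alone, by DESeq2's Wald test (DESeq2 adjusted p = 0.0044) and by limma-voom (limma-voom adjusted p = 0.0447). GLRX was picked after its values were seen.

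The F0 males offer a separate set of 12 fish in which the exposure itself was compared. There edgeR called 2060 of 18057 genes, 11.4%, 1141 higher and 919 lower in F0 TREATED males. Of the 1496 genes at an unadjusted p below 0.05 in F2, 1399 were tested in F0 and 321 were called there, 22.9%, 303 in the same direction as in F2 and 18 in the opposite one. Of the 231 genes whose F2 lines did not overlap in either sex, 225 were tested and 43 were called in F0, 19.1%, all 43 in the same direction, 15 higher and 28 lower. Called in F0 or not, 165 of the 225 had the same sign in both generations, 73.3%, against 54.6% of all genes tested in both. Among the 14 genes named for their p or for lines that did not overlap, 10 were called in F0 with the same direction. DGCR8 had an F0 change of -0.86 (SE 0.15, adjusted p = 0.015), oip5-as1 of -0.80 (SE 0.14, adjusted p = 0.015), SIK3 of 0.55 (SE 0.10, adjusted p = 0.015) and RAB3GAP1 of 0.45 (SE 0.089, adjusted p = 0.0151). CALR, LIN7A, NGB, IRF2BP2, MAP4K4 and si:ch1073-235m4.3 were the others called, while mgll with -0.22, NECAB2 with -0.23, CYTH3 with -0.09 and nlrp3l2 with -0.31 were not. Outside these, CHAT had -0.70 (SE 0.21, adjusted p = 0.0433). Other list genes called in F0 with the same sign were GRIA3, MAT2A, tefa, mao, ATP5F1B, NDRG4, STMN1 and the COX5B ID at 0.44 in F2. Called with the opposite sign were tek, at -0.45 in F2 and 0.81 in F0 (SE 0.22, adjusted p = 0.0348), and RPS13. RPS13 had -0.28 in F2 and 0.53 in F0 (SE 0.15, adjusted p = 0.0404). Ribosomal protein genes had opposite signs, with a median of -0.16 in F2 against 0.41 in F0 males.

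Sign agreement between the generations was 70.8% (991 of 1399) for the F2 genes at an unadjusted p below 0.05 and 54.6% for all 17868 genes tested in both. Without the 3 fish with the fewest genes detected these were 76.2% and 59.1%. Over all genes, 56.4% of the signs of F2 females and 48.9% of those of F2 males were the same as in F0 males. No gene passed edgeR's test of a difference between the F2 and the F0 effect over all 24 fish at an adjusted p below 0.05 (lowest adjusted p = 0.14). At an unadjusted p below 0.05 there were 2400 of 21082 genes. The F2 effect had 0 calls of its own, so 0 calls here do not show that the 2 effects are alike. The share of reads outside genes moved with the groups in F0 too: it was 16.6 to 19.5% in F0 TREATED and 19.9 to 21.4% in F0 CONTROL males, without overlap. With that share as a covariate in both fits, F0 had 0 calls (1027 at an unadjusted p below 0.05), F2 had 489 genes at an unadjusted p below 0.05, and the agreement was 53.0% for those genes and 54.0% for all. Since the share differs by group in both generations, the covariate also takes up group differences, and the exposure or line and this library measure cannot be told apart.

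**Figure D5:**
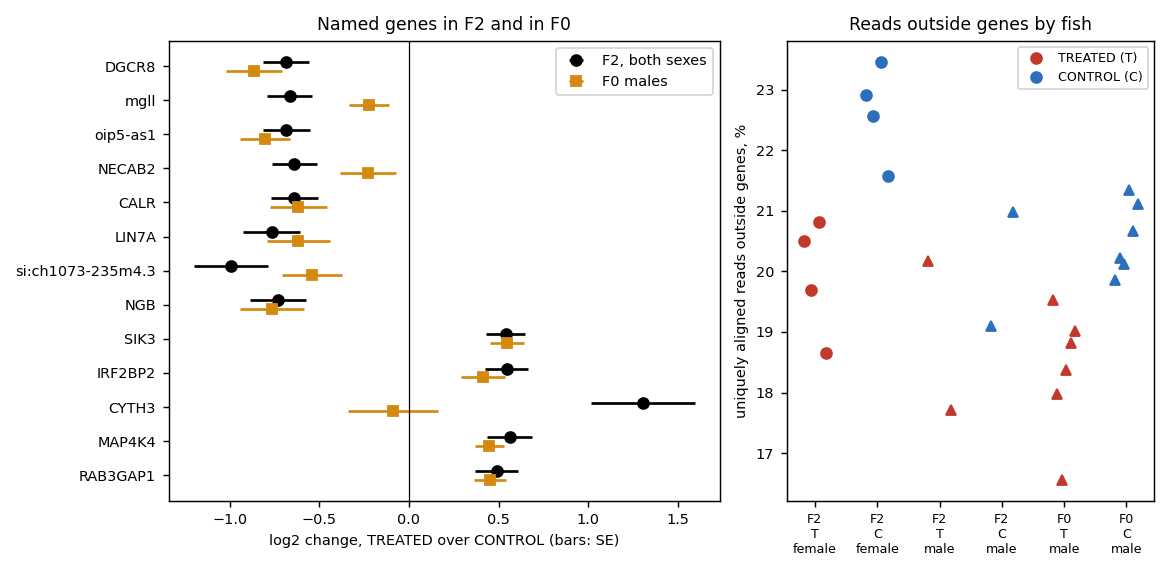
Left, log2 change of 13 named genes with SE bars in F2 brains of both sexes (black circles) and in F0 male brains (orange squares), TREATED over CONTROL; right, percent of uniquely aligned reads outside genes in each fish, TREATED in red left of CONTROL in blue. Of the 13 genes CYTH3 is the one whose F0 change, -0.090, has the opposite sign, and the read share is lower in TREATED fish of F2 females and F0 males without overlap.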

How the data were processed

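Whole-brain RNA of 12 F2 fish was analysed, with 12 F0 males for comparison. Per the labels' protocols an RNeasy kit served for RNA and the TruSeq mRNA kit for libraries. Per the submitters' processing notes the authors' tools were STAR 2.7, HTSeq 0.11.2, cutadapt 2.1, bcl2fastq and DESeq2 1.24.0, on GRCz11. The deposited values are raw counts of reads per gene, not normalised. Annotation release and strand setting: not given in the sources used here. Table lines that name no gene were kept out of every fit; reads outside genes were 16.6 to 23.5% of uniquely aligned reads.

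Counts of the 2 runs that 3 F2 fish had were summed, since their chi-square per degree of freedom was 1.03 to 1.19, while 2 fish of a group gave 23.7 to 101.6. Each fish is 1 replicate. Depth was 12.2 to 30.1 M gene reads per F2 fish; the floor of 3 reads allows for counting error alone, reads without molecular identifiers not being independent molecules. Genes were tested with edgeR 4.0.16 in R 4.3.3 (TMM, filterByExpr with a minimum count of 10, glmQLFit with robust = TRUE, glmQLFTest, terms sex and line), adjusted by Benjamini-Hochberg over all tested genes at 0.05. All adjusted p-values of genes are from this fit unless another tool is named. The female, male and interaction contrasts came from a fit of 4 group means; each sex was also fitted alone, and F0 males alone. Library measures were compared by exact permutation within sex, with 420 arrangements and a smallest possible p of 0.00476. Other tools were Python 3.11.15 with scipy 1.17.1, pandas 2.3.3, numpy 2.4.6 and matplotlib 3.10.9, and in R limma 3.58.1 and DESeq2 1.42.0. The scripts were tested on simulated counts.

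Symbols came from a name table that named 29201 of 32520 IDs. Of 965 names in 36 gene lists, 682 matched directly, 219 without a paralog suffix, 24 through a synonym and 40 not at all. The comparison, its lists and the naming rule were chosen with earlier results of these data known. Named were the 6 genes with the lowest p and the same sign in both sexes in each direction (at least 1 CPM in the higher line, no clone name), the 6 with the lowest p among those whose lines did not overlap in either sex, and the 2 with the lowest p of the sex difference. Since no gene passed, up to 2 members per list at an unadjusted p below 0.05 with the same sign were added after the values were seen, as were the genes with reads in 1 line only; 2 of the list genes are not reported here. Alternatives were other scalings, filters and tools, leaving out fish, and covariates.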

Additional observations from a re-analysis of the deposited data

Results flagged for a closer look

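In 6 of the 134 female groups of 4 fish that were looked at (named genes and library measures), 1 fish stood far from the other 3; chance alone gives such a gap in about 1 of 20 groups. In F2 TREATED females, ENO3 had 9.29 CPM in fish 6, against 23.3 to 24.2 CPM in the others, and prdx1 had 48.6 CPM in fish 28, against 72.9 to 75.5 CPM. In F2 CONTROL females, fish 31 stood low at apoeb with 293.8 CPM against 373 to 386 CPM, and at CALB2 with 112 CPM against 153 to 159 CPM. F2 CONTROL female 39 stood low at NDRG4 with 809.9 CPM against 1044 to 1080.0 CPM, and F2 CONTROL female 21 stood high at tek with 52.3 CPM against 42.0 to 43.1 CPM.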

How the results depend on the processing

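The edgeR count of 0 genes for both sexes held under DESeq2 size factors, a filter minimum of 30, a fit without robust weights, no sex term, 4 group means, either covariate, the first run only, and without the 3 fish with the fewest genes detected. It was 61 with DESeq2, 26 with DESeq2 without its own filter, 6 with limma-voom, and 5 with no filter but at least 1 read, under which females had 3, males 3 and the sex difference 1. Genes at an unadjusted p below 0.05 numbered 489 with the outside-genes read share as covariate and 2505 with limma-voom. Leaving out 1 fish at a time gave 0 to 2 genes for both sexes (2 without F2 TREATED female 6, 1 without F2 TREATED male 30), 1033 to 1713 at an unadjusted p below 0.05, 0 in females, 0 to 2 in males, 0 to 1 for the sex difference and 0 to 3 in females alone.

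The same-sign share over all genes was 53.8 to 60.0% when 1 fish was left out, 51.7% with no filter and 53.9% without the 3 fish. For genes at an unadjusted p below 0.05 in females alone it was 58.5 to 78.2%, 69.4% and 65.2% under the same settings; females alone had 1 call in the 4-group fit and 5 in their own fit without the 3 fish. Genes whose lines did not overlap numbered 284 to 526 without 1 fish and 1233 without the 3, since fewer fish make overlap rarer. Agreement with F0 was 64.3 to 75.9% without 1 fish, 76.2% without the 3 and 53.0% with the covariate; over all genes it was 52.0 to 58.1%, 59.1%, 53.0% with 4 group means and 57.4% with limma-voom. Medians stayed below 0 without any 1 fish: -0.22 to -0.079 for ribosomal proteins (53 to 61 genes below 0), -0.90 to -0.35 for interferon genes (20 to 25) and -0.30 to -0.081 for neuropeptides (24 to 28), and -0.79 to -0.21 for pituitary genes. The pituitary median was -1.85 with the outside-genes covariate. The photoreceptor median was 0.26 to 2.102 without 1 fish and turned to -0.21 with limma-voom. The line difference in the share of reads outside genes was -2.52 to -1.29 percentage points without 1 fish (p above 0.05 without F2 TREATED 28 or 38 or F2 CONTROL 27) and -2.29 without the 3 fish (exact permutation p = 0.05). Among 64 named genes only NDRG4 turned its sign, at 4.66e-06 with the covariate. The cause of these shifts was not tested, except where a setting removes fish or genes. No paired analysis was possible because the labels give no family, clutch or tank by which F2 TREATED and F2 CONTROL fish could be paired. With 2 males a line, the male contrast is the least certain.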
